A study of Mus musculus with 6 samples.

Results

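The CDC2-like kinase genes Clk1, Clk2, Clk3 and Clk4, the cyclin L genes Ccnl1 and Ccnl2, and the splicing factor genes Rbm5, Sfswap and Luc7l were examined in pancreatic islets of mice that lack the long noncoding RNA gene Paupar. These 9 genes were taken by name from the 53670 genes of the count table, as genes known for transcripts that keep introns and stay in the nucleus. They were chosen with the difference between genotypes in these same libraries already known, so their differences between genotypes are given below as a description and not as a test. All 9 were among the 15915 genes with enough counts to be tested. Paupar lies beside Pax6, and the study asks which islet transcripts differ when it is missing. The groups were isolated islets of 6-week-old Paupar -/- mice (KO, 3 libraries) and of 6-week-old Paupar +/+ mice (WT, 3 libraries). The labels do not name the strain, how Paupar was disrupted, or whether each library came from 1 animal or from a pool. P-values therefore rest on the variation among these libraries alone, and part of it may be technical.

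Splicing removes introns from a transcript, and the proteins that carry it out often limit their own amounts through it. CLK kinases phosphorylate SR proteins, a family of splicing factors rich in arginine and serine, and so release them from nuclear speckles to act on introns. The transcripts of several CLK and SR protein genes exist in a spliced, protein-coding form and in a form that keeps introns or skips an exon and is held in the nucleus or degraded. Cyclin L proteins are partners of the kinase CDK11 and take part in splicing, and they too sit in speckles. RBM5 and SFSWAP are RNA-binding regulators of alternative exons, and LUC7L is a relative of a yeast protein that helps the U1 particle to recognise the start of an intron.

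The exon whose use decides between the 2 kinds of CLK transcript is shown first, because it is what these kinase genes share. In the mouse annotation (GENCODE vM1, build mm9) it is exon 4 of the main coding transcript of each gene. The exon is printed in lower case with the first 6 bases of the intron behind it, and the capitals mark the GT with which that intron starts. The exons lie at chr1:58476965-58477055 (minus strand, Clk1), chr3:88973540-88973624 (plus strand, Clk2), chr9:57606434-57606530 (minus strand, Clk3) and chr11:51086580-51086670 (plus strand, Clk4).
Clk1: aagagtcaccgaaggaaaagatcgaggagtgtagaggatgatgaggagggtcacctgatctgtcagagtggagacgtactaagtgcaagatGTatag
Clk2: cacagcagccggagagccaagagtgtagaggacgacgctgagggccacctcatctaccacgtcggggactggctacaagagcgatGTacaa
Clk3: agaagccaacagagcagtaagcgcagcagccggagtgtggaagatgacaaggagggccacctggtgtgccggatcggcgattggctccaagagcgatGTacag
Clk4: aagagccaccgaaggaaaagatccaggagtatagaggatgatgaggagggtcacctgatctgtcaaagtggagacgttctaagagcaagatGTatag

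The exon was 91 bases long in Clk1, 85 in Clk2, 97 in Clk3 and 91 in Clk4. Each length leaves a remainder of 1 when divided by 3, so a transcript that skips the exon changes its reading frame. Clk1 and Clk4 are the closest pair, with 93.4% of the aligned bases of the exon identical, against 59.3% to 65.3% for the other pairs. Transcripts that join exon 3 directly to exon 5 were annotated for Clk1 (3, of which 2 are classed as targets of nonsense-mediated decay), for Clk2 (1, so classed) and for Clk4 (3, of which 2 so classed). For Clk3 the annotation held 1 transcript in all, with the exon.

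The introns on both sides of exon 4 are also kept in annotated retained-intron transcripts. This held for introns 3 and 4 of Clk1 (871 and 387 bases), of Clk2 (694 and 346 bases) and of Clk4 (1055 and 391 bases). The start of intron 4 is shown for these kinases, with the last 10 bases of exon 4 and the first 20 of the intron, because it is nearly the same in Clk1 and Clk4 (29 of 30 bases identical). The start of intron 5 is shown for the cyclin L genes, which each have an annotated transcript that keeps it (chr3:65752713-65754401, minus strand, Ccnl1, and chr4:155192097-155194437, plus strand, Ccnl2). Capitals mark the GT at the start of the intron.
Clk1 intron 4: agtgcaagatGTatagaatatttttcaaca
Clk2 intron 4: caagagcgatGTacaagccaaatcgtaaca
Clk4 intron 4: agagcaagatGTatagaatatttttcaaca
Ccnl1 intron 5: aaactgcctgGTaagttcctcttttacatt
Ccnl2 intron 5: agactgcatgGTgagttgattttccttgtt

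Intron 5 measured 1689 bases in Ccnl1 and 2341 bases in Ccnl2. The 9 genes were taken as ones known for retained introns, so the number of such transcripts in the annotation describes that choice. There were 8 for Ccnl1, 7 for Clk4, 5 for Clk1, 4 for Clk2, 3 for Ccnl2 and 1 for Luc7l, and none for Clk3, Rbm5 and Sfswap. The annotation held only 1 transcript of any kind for Clk3, 1 for Rbm5 and 2 for Sfswap, against 7 to 15 for the others. A count of none therefore does not show that these genes keep no introns. Of the 13845 tested protein-coding genes with annotation, 32.7% had at least 1, and nothing is read from the comparison. The deposited counts are sums over a gene. They do not separate a transcript that keeps an intron or skips an exon from the coding one, and whether reads inside these introns were counted is not given in the sources used here.

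The libraries held 25733194 to 27285009 gene counts each, and the 9 genes had between 243 and 2854 counts per library. Paupar had 4, 0 and 4 counts in KO replicates 1 to 3, against 177, 252 and 111 in WT replicates 1 to 3. Counts of Xist, which is transcribed from the inactive X chromosome, were 0, 1120 and 862 in KO, against 1, 6 and 3 in WT. Those of the Y chromosome gene Ddx3y were 1693, 2 and 0 in KO, against 1715, 1316 and 1830 in WT. KO replicates 2 and 3 thus had the sex-linked transcripts of females, and the other libraries those of males. Sex and genotype are therefore partly confounded. The summed level of 10 islet endocrine markers was 331800 to 336500 CPM (a count scaled to a library size common to all libraries, after TMM) in KO, against 275000 to 291700 in WT. That of 7 endothelial markers was 516.3 to 539.2 CPM in KO, against 363.3 to 454.0 in WT. The sums of 12 acinar markers (17760 to 47160 CPM in KO, 23830 to 76180 in WT), 6 duct markers (222.8 to 277.5 in KO, 247.2 to 266.4 in WT), 7 macrophage markers (114.8 to 221.3 in KO, 97.5 to 169.0 in WT), 7 mesenchymal markers (99.9 to 186.8 in KO, 79.7 to 185.6 in WT) and 5 Schwann cell markers (9.63 to 11.6 in KO, 9.39 to 17.4 in WT) overlapped between groups. No marker of these lists was at 0 in every library. The part of the endocrine and endothelial differences in the results below was not tested.

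All 9 genes were lower in KO islets, by 0.25 to 0.85 on the log2 scale. Their median log2 fold change (KO over WT) was -0.65, where the median of all tested genes was 0.0023 and 49.7% of them were negative. In 8 of the 9 every KO library lay below every WT library, and Clk3 was the exception. Such a separation was found for 12.1% of all tested genes. In bulk tissue, fewer cells of a type and less RNA per cell cannot be told apart.

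Clk1 (chromosome 1, 58467033 to 58480910, minus strand, mm9), the best studied of the 4 kinases, had 23.9, 27.5 and 32.5 CPM in KO replicates 1 to 3, against 42.9, 44.5 and 34.8 CPM in WT replicates 1 to 3. KO replicate 3 was the highest KO library and WT replicate 3 the lowest WT library, and these 2 differed by only 6.48% of the WT value. The log2 fold change was -0.54 (approximate standard error (SE) 0.14).

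Clk4 (chromosome 11, 51075232 to 51095268, plus strand), the closest relative of Clk1 by the exon shown above, had 17.1, 15.9 and 15.3 CPM in KO, against 22.5, 22.5 and 23.4 CPM in WT. The WT libraries were close together, with a coefficient of variation (SD over mean) of 2.42%, where counting alone gives 4.04%. Their closeness is therefore not read as a trait of the gene. The highest KO library was 23.9% below the lowest WT library. The log2 fold change was -0.50 (SE 0.08).

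Clk2 (chromosome 3, 88968717 to 88980843, plus strand), which encodes a kinase of the same family, had 11.2, 9.28 and 10.9 CPM in KO, against 16.2, 18.8 and 16.6 CPM in WT. The groups were apart, with 31.3% of the WT value between the nearest libraries. At -0.72 (SE 0.11) its log2 fold change was the most negative of the 4 kinases.

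Clk3 (chromosome 9, 57598518 to 57613667, minus strand) had 16.98, 20.62 and 14.93 CPM in KO, against 24.65, 26.95 and 17.86 CPM in WT. WT replicate 3 was below KO replicate 2, so the groups overlapped, and the log2 fold change was -0.40 (SE 0.18). Its exons overlap those of Edc3 on the opposite strand over 582 bases, and without a known strand setting reads from there cannot be told apart.

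The cyclin L genes were both lower in KO. Ccnl1 (chromosome 3, 65750073 to 65762171, minus strand) had 20.3, 14.1 and 15.8 CPM in KO, against 27.46, 26.95 and 30.02 CPM in WT. KO replicate 1 stood well above the other 2 KO libraries, with a coefficient of variation over the 3 of 19.4% in KO, against 5.84% in WT. The log2 fold change was -0.75 (SE 0.14).

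Ccnl2 (chromosome 4, 155186598 to 155198652, plus strand) had 19.5, 21.8 and 18.7 CPM in KO, against 33.9, 38.3 and 35.8 CPM in WT. The groups were far apart, with 35.7% of the WT value between the nearest libraries. Its log2 fold change of -0.85 (SE 0.09) was the most negative of the 9 genes, and 2.74% of all tested genes had one as low or lower.

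Rbm5 (chromosome 9, 107642826 to 107673333, minus strand) encodes an RNA-binding regulator of exon choice in genes of cell death. It had 64.8, 68.4 and 65.1 CPM in KO, against 105.2, 106.1 and 98.7 CPM in WT. This was the tightest of the 9 genes in KO, with a coefficient of variation of 3.03%, where counting alone gives 2.40%. The log2 fold change was -0.65 (SE 0.06).

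Sfswap (chromosome 5, 130007106 to 130077258, plus strand) is the mouse counterpart of the Drosophila suppressor-of-white-apricot gene, whose protein reduces the splicing of its own transcript in the fly. It had 17.6, 15.8 and 18.2 CPM in KO, against 30.6, 32.2 and 28.6 CPM in WT. No library of one group came near the other, with 36.3% of the WT value between the nearest libraries, and the log2 fold change was -0.82 (SE 0.09).

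Luc7l (chromosome 17, 26389855 to 26422449, plus strand) showed the smallest difference of the 9 genes. It had 49.5, 57.1 and 52.0 CPM in KO, against 65.3, 63.4 and 59.8 CPM in WT. The groups did not overlap, but only 4.50% of the WT value lay between KO replicate 2 and WT replicate 3. The log2 fold change was -0.25 (SE 0.08), and 21% of all tested genes had one as low or lower.

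**Figure D1:**
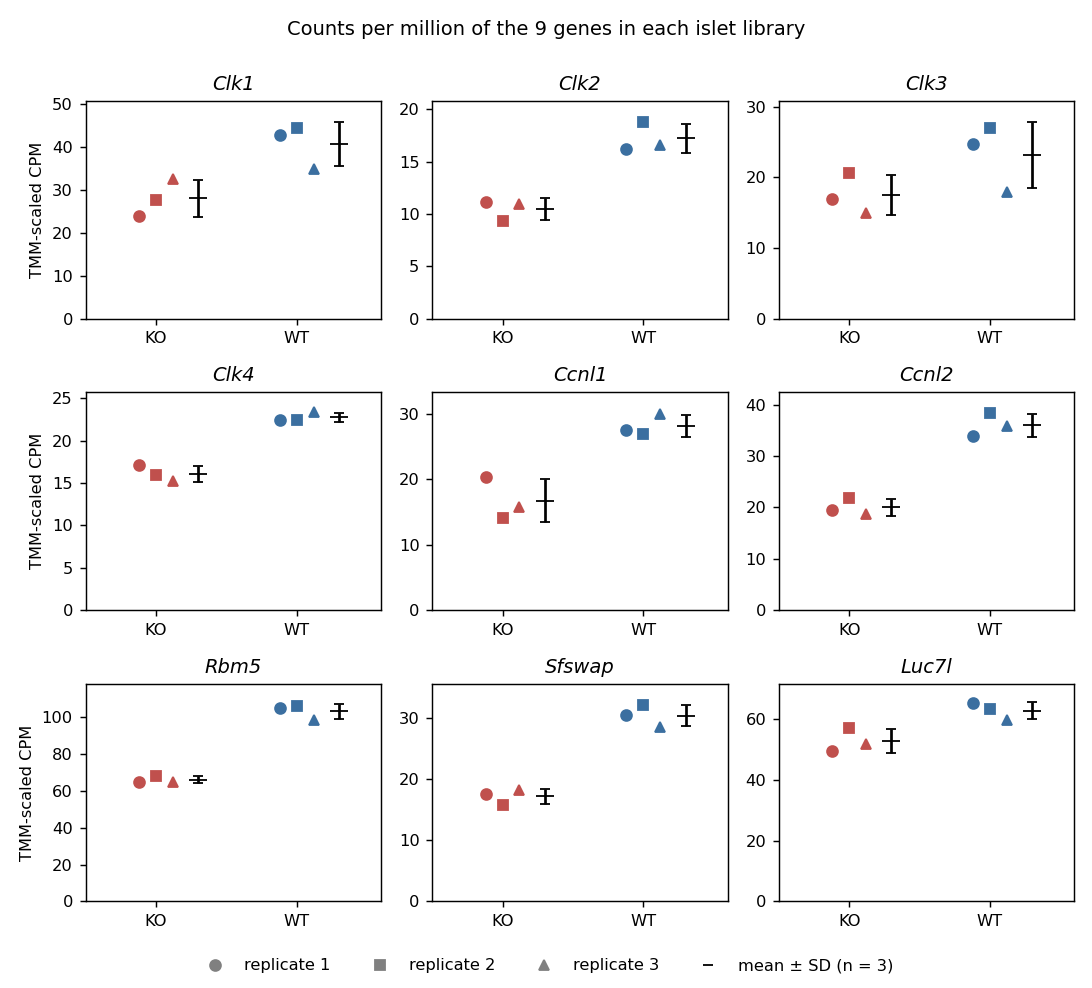
CPM scaled by TMM factors (vertical axes, from 0) of the 9 genes in each library, with KO left of WT in each panel; the symbol gives the replicate number, and the black mark gives the mean ± SD of 3 libraries. KO and WT libraries are apart in every panel except that of Clk3, where WT replicate 3 (17.9 CPM) lies below KO replicate 2 (20.6 CPM).

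edgeR called 3 of the 9 genes lower in KO at a Benjamini-Hochberg adjusted p below 0.05, namely Ccnl2, Rbm5 and Sfswap, and none higher, where it called 0.17% of all tested genes lower. The other 6 were not called. At an unadjusted p below 0.05, 8 of the 9 were lower, where 9.38% of all tested genes were lower and 6.99% higher. Because the choice of the genes used this contrast, nothing is read from these shares. Each of the 3 had an adjusted p of 0.0446 in edgeR and 0.0558 in limma-voom. The 3 calls were lost in limma-voom and with the replicate number as a block. They were also lost with sex-linked transcripts, acinar markers, or exonic length and GC content taken into account. The same held when any library other than WT replicate 3 was left out. Paupar itself, called in edgeR, lost its call in the same analyses (adjusted p = 0.0920 in limma-voom). A lost call therefore does not show that a gene is unchanged. DESeq2 called 7 of the 9 lower, all but Clk3 and Luc7l, where it called 3.33% lower and 1.37% higher of all genes to which it gave an adjusted p.

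The same 3 genes were called with DESeq2 size factors in edgeR (0.163% of all genes called lower), without a low-count filter (0.123%), with a filter of 1 CPM in 3 libraries (0.262%) and without WT replicate 3 (0.492% lower, 0.0553% higher). With library totals in place of TMM factors Clk2 and Clk4 were called beside them (0.754%). Without KO replicate 1 none of the 9 was called, where 0.0246% of all genes were called lower and 0.00616% higher. With KO replicate 1 alone against WT none of the 9 was called either, where 0.00592% of all genes were called higher.

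Each of the 9 genes had a negative log2 fold change under all 17 alternatives. The alternatives reuse these libraries and the genes were chosen with this contrast known, so the shared direction is no result. The sex covariate and KO replicate 1 alone gave nearly the same estimates, -0.766 and -0.765 for Clk1. The range was -0.93 to -0.80 for Ccnl2, -0.90 to -0.73 for Sfswap and -0.72 to -0.63 for Rbm5. It was widest for Ccnl1, at -0.92 to -0.47, where KO replicate 1 was the library that differed from the others.

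**Figure D2:**
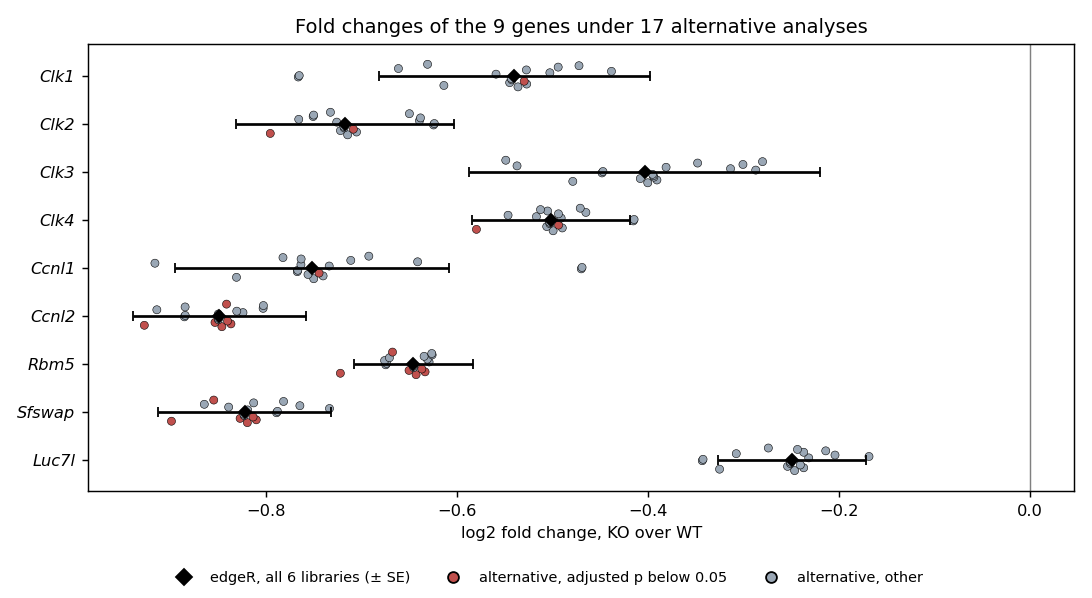
Log2 fold change of KO over WT (horizontal axis) for the 9 genes, with the edgeR estimate from all 6 libraries as a diamond ± SE and each of 17 alternative analyses as a circle, red where its adjusted p was below 0.05. Every circle lies left of 0, and red circles are most frequent for Ccnl2, Rbm5 and Sfswap, with 6 each. The 9 genes were chosen with their difference known, so the shared side of 0 is no result.

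KO replicate 1 was the only KO library that resembled WT in sex-linked transcripts. Set alone against WT it gave log2 fold changes of -0.88 to -0.34 for the 9 genes. Their median was -0.62, where that of all tested genes was -0.0068. The choice of the 9 genes used this library too, so nothing about sex is read from these values. Clk1 was lower in that library than in the other KO libraries, with a log2 fold change against WT of -0.76 there and of -0.44 without that library. Ccnl1 was higher in it, at -0.47 there and -0.92 without it. For Rbm5 the values were -0.67 and -0.63, and for Sfswap -0.79 and -0.84.

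Among the WT libraries the 9 genes did not share 1 order. WT replicate 3 was the lowest WT library for Clk1, Clk3, Rbm5, Sfswap and Luc7l, but the highest for Clk4 and Ccnl1. The highest WT library exceeded the lowest 1.51-fold for Clk3 and 1.28-fold for Clk1, and 1.04-fold for Clk4. As a mean over the 9 genes, centred on each gene's own mean log2 CPM, the KO libraries stood at -0.29, -0.31 and -0.32 and the WT libraries at 0.31, 0.38 and 0.23.

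Levels of different genes were compared as CPM divided by the length of all annotated exons in kilobases (RPKM, TMM-scaled). Rbm5 was the most abundant of the 9 transcripts, at 21.4 ± 0.649 RPKM in KO and 33.5 ± 1.32 in WT (SD, n = 3 each). Luc7l was next in KO and Clk3 in WT: Luc7l averaged 7.04 ± 0.512 RPKM in KO and 8.36 ± 0.376 in WT, and Clk3 7.02 ± 1.16 in KO and 9.29 ± 1.90 in WT. The libraries of these 2 genes overlapped in both groups. Clk2 was the least abundant, at 1.97 ± 0.193 RPKM in KO and 3.25 ± 0.261 in WT, and in both groups its libraries lay below those of Clk4, the gene next above it.

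Sfswap averaged 4.34 ± 0.316 RPKM in KO and 7.67 ± 0.448 in WT, and Ccnl2 3.79 ± 0.301 in KO and 6.82 ± 0.421 in WT. Clk1 averaged 3.44 ± 0.531 RPKM in KO and 5.002 ± 0.637 in WT, Ccnl1 2.79 ± 0.541 in KO and 4.69 ± 0.274 in WT, and Clk4 2.78 ± 0.159 in KO and 3.93 ± 0.0951 in WT. In KO, neighbours in the order Sfswap, Ccnl2, Clk1, Ccnl1 and Clk4 overlapped over their libraries. In WT, Ccnl2 was apart from Clk1, and Ccnl1 from Clk4, while the other neighbours from Clk3 down to Clk4 overlapped. The order rests on the length used: over the main coding transcript alone, which leaves out annotated retained introns, Clk1 came second of the 9 genes in both groups, at 15.6 ± 2.41 in KO and 22.7 ± 2.88 in WT, because its exon union of 8139 bases shrinks to 1796. Clk3, with 2494 bases by either measure, then came seventh in both groups. Clk2 stayed last by mean, at 4.855 ± 0.476 in KO and 7.98 ± 0.641 in WT. The gene next above it was then Sfswap, at 5.21 ± 0.38 in KO and 9.22 ± 0.538 in WT. The distance of Clk2 from the next gene thus rests on the length used too.

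Within each family the shares overlapped between groups over their libraries. Over the exon union, Clk3 gave 46.0 ± 5.21% of the summed RPKM of the 4 kinases in KO and 43.0 ± 3.88% in WT, and Clk1 gave 22.7 ± 3.97% in KO and 23.3 ± 0.474% in WT (SD, n = 3 each). Ccnl2 gave 57.8 ± 5.82% of the summed RPKM of the cyclin L genes in KO and 59.2 ± 2.22% in WT. Clk2 gave 10.8 to 14.2% in KO and 13.9 to 16.8% in WT, and Clk4 gave 18.3 ± 1.49% in KO and 18.5 ± 2.82% in WT. The order rests on the length used here too: over the main coding transcript Clk1 gave most, 43.5 ± 5.0% in KO and 43.8 ± 1.71% in WT, and Clk3 19.7 ± 3.38% in KO and 17.9 ± 2.08% in WT, below Clk4 by mean. Clk2 was last by mean share with either length.

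**Figure D3:**
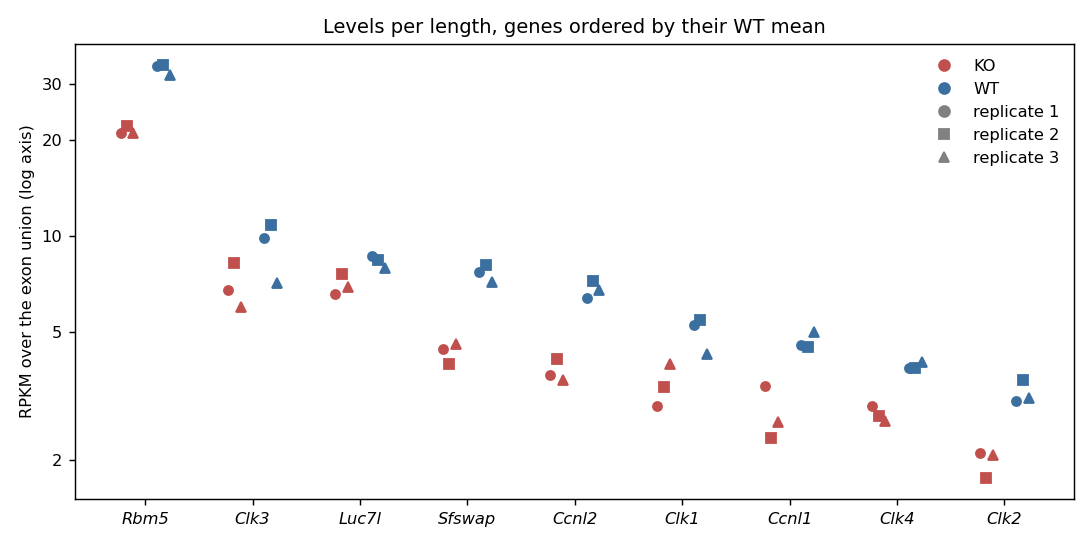
RPKM over the exon union (log axis) of the 9 genes in each library, ordered from left to right by the WT mean, with KO in red left of WT in blue and the symbol giving the replicate. Rbm5 stands above the other genes in both groups, and Clk2 lies lowest.

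Other genes of the same machinery were listed by function, without the 9 genes. Each list had a median nearer to 0 than the 9 genes. This is no result, since the 9 genes were chosen with their difference known. Among SR protein kinases and related kinases, 11 were tested, none was called in either direction, 10 were negative and the median log2 fold change was -0.23. The median was -0.13 without KO replicate 1, -0.15 without WT replicate 2 and -0.15 with the length and GC offsets. Srpk1, which phosphorylates SR proteins in the cytoplasm, had 30.6, 26.7 and 30.2 CPM in KO, against 39.4, 37.8 and 35.1 CPM in WT, which puts it at -0.36 on the log2 scale (SE 0.09, edgeR adjusted p = 0.154). Its relative Srpk2 was at -0.03 (SE 0.10, adjusted p = 0.911).

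The kinases and cyclins that act on transcription, among them the partner of cyclin L, had 13 tested members with none called and a median of -0.10. That median was -0.034 without KO replicate 1, -0.012 with the length and GC offsets and -0.17 with library totals. Cdk7, of the general transcription factor TFIIH, was at 0.10 (SE 0.11, adjusted p = 0.705), and Cdk8, of the Mediator complex, at 0.03 (SE 0.11, adjusted p = 0.920). Cdk11b, which encodes a partner of cyclin L and was singled out after its value was seen, was at -0.15 (SE 0.09, adjusted p = 0.453).

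The SR proteins and TRA2 proteins, substrates of CLK kinases, were split in direction. Of 13 tested genes 6 were negative and 7 positive, none was called, and the median log2 fold change was 0.05, which turned to -0.025 with library totals in place of TMM factors and to -0.026 without WT replicate 2. It was 0.10 with the sex covariate and with KO replicate 1 alone, 0.089 without WT replicate 3 and 0.027 without KO replicate 1. Srsf1, a founding SR protein, had 135.7, 118.1 and 133.9 CPM in KO, against 117.8, 103.8 and 125.7 CPM in WT, which puts it at 0.16 on the log2 scale (SE 0.09, edgeR adjusted p = 0.458). Srsf2, a protein used as the marker of nuclear speckles, was at 0.13 (SE 0.09, adjusted p = 0.513).

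Among relatives of RBM5, SFSWAP and LUC7L, 1 of 12 tested genes was called lower and none higher, with a median of -0.12 and 10 negative. The median was -0.20 without KO replicate 3, -0.20 with library totals, -0.19 with the sex covariate and -0.18 with KO replicate 1 alone. The called gene, Sugp2, encodes a protein that shares the SURP domain with SFSWAP. It fell to 6.85, 7.07 and 8.03 CPM in KO, against 14.4, 15.9 and 13.8 CPM in WT, and stood at -1.01 on the log2 scale (SE 0.12, edgeR adjusted p = 0.0446). The KO libraries were all below the WT libraries. Its call was lost in the same analyses as those of Ccnl2, Rbm5 and Sfswap, where its log2 fold change ran from -1.10 to -0.75 and its adjusted p from 0.0558 (limma-voom) to 0.623 (KO replicate 1 alone). The next relatives of Rbm5 and Luc7l, singled out after their values were seen, were Rbm6 at -0.36 (SE 0.08, adjusted p = 0.135), Rbm10 at -0.51 (SE 0.08, adjusted p = 0.0840), Luc7l2 at 0.01 (SE 0.08, adjusted p = 0.981) and Luc7l3 at -0.37 (SE 0.09, adjusted p = 0.157).

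Other genes with detained introns or with splicing that limits their own product had a median of -0.33 over 8 tested members, 7 of them negative and none called. The median was -0.27 without KO replicate 2 and -0.40 with library totals. In 4 of the 8 every KO library lay below every WT library, where 12.1% of all tested genes did so. The list was chosen with earlier results known, so nothing is read from this share. Ogt, which encodes the enzyme that adds GlcNAc sugars to nuclear proteins, was at -0.07 (SE 0.13, adjusted p = 0.835), and Mgea5, which encodes the enzyme that removes them, at -0.24 (SE 0.12, adjusted p = 0.394). The factors that hold back or degrade nuclear and aberrant transcripts had a median of -0.20 over 16 tested members, 13 of them negative and none called. It was -0.13 both without WT replicate 2 and with the length and GC offsets, and -0.28 with library totals. Exosc10 and Exosc3, of the RNA exosome, were at -0.14 (SE 0.11, adjusted p = 0.583) and 0.06 (SE 0.09, adjusted p = 0.792).

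**Figure D4:**
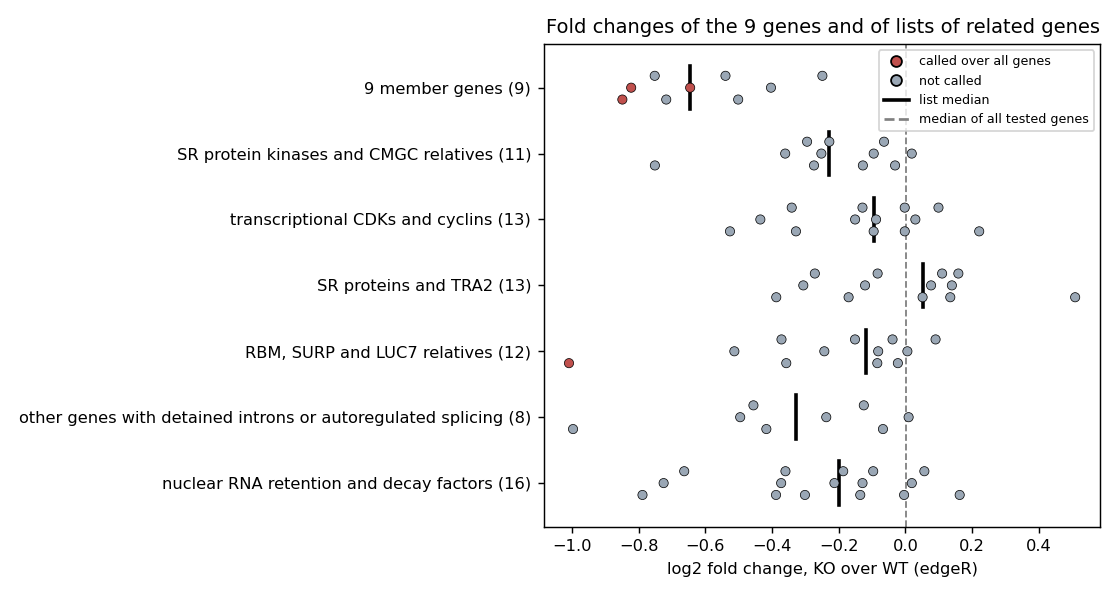
Log2 fold change of KO over WT (horizontal axis) for the 9 genes and for each tested gene of 6 lists of related genes, with the number tested in parentheses, the list median as a black bar and the median of all tested genes (0.0023) as a dashed line. The medians run from -0.65 for the 9 genes to 0.05 for the SR proteins (-0.025 with library totals). Sugp2 is the only called gene (red) outside the 9. The 9 genes were chosen with their difference known, so their place among the lists is no result.

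The number of annotated retained-intron transcripts went with a small difference over all tested coding genes. The median log2 fold change was 0.0044 for the 9321 genes with none and 0.024 for the 1897 genes with 1. It was -0.0049 for the 1143 genes with 2, -0.039 for the 661 genes with 3 and -0.081 for the 823 genes with at least 4, of which 64.6% were negative. Exonic length rose along with it, with a median of 3226 bases in the first of these classes and 5974 in the last, and the part of length was not tested. The 9 genes were chosen with their difference known, so their place below the median of their class is no result.

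**Figure D5:**
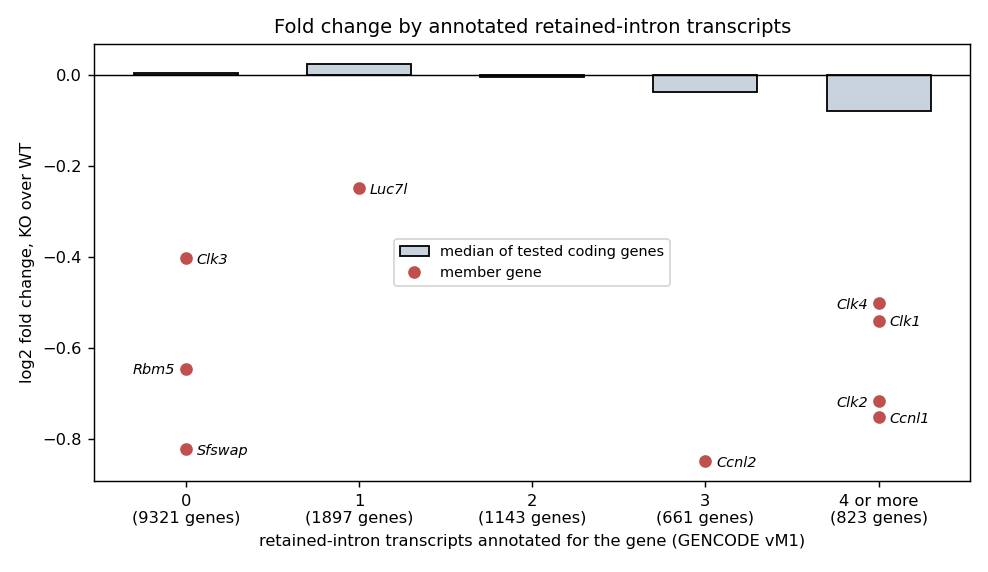
Log2 fold change of KO over WT (vertical axis) by the number of retained-intron transcripts annotated for a gene, with the median of all tested protein-coding genes of a class as a bar and the 9 genes as red points. The bars run from 0.024 to -0.081, and each red point lies below the bar of its class. Clk3, Rbm5 and Sfswap, in the class with none, have 1, 1 and 2 annotated transcripts of any kind.

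Genes with longer exons had lower values in these libraries, with a median log2 fold change of 0.093 in the fifth of tested genes with the shortest exons in sum and of -0.099 in the fifth with the longest. The 9 genes had a median exonic length of 5299 bases. With offsets for length and GC content their median log2 fold change was -0.64.

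The 8 genes whose profile over the 6 libraries was nearest to the mean profile of the 9 genes were picked by the root mean square distance of centred log2 CPM, over all 15915 tested genes without predicted ones. They were Eif2ak4 (distance 0.014), which encodes the amino acid sensing kinase GCN2, Kmt2b (0.040), a histone methyltransferase gene, Prpf40b (0.044), which encodes a protein of the U1 particle, Zc3h7a (0.047), a zinc finger gene, Dst (0.050), which encodes a large linker of the cytoskeleton, Anks3 (0.053), Plekha6 (0.054) and Tmem161b (0.054). Of the 9 genes Rbm5 lay nearest to the mean profile (0.036) and Clk3 farthest (0.22), where the median of all tested genes was 0.38. The 9 genes make up that mean and were chosen with their difference known, so their nearness to it is no result. Eif2ak4 had 17.3, 16.8 and 17.1 CPM in KO, against 26.4, 27.5 and 24.5 CPM in WT. Genes picked by nearness to that profile are bound to be lower in KO, so this difference is no result either.

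The promoters of 7 of the 9 genes were matched in RefSeq (build GRCm38.p6, 250 bases before to 50 after the start), not those of Clk1 and Luc7l. The cyclic AMP response element TGACGTCA, which reads the same on both strands and was picked out after these sequences had been seen, was present in those of Clk4 and Ccnl1. It was present in 1.88% of 27025 promoters of the same length. It starts 65 bases before the start of Clk4 and 18 before that of Ccnl1. The shorter TGACG, which lies inside that element, was found on either strand in 6 of the 7 and in 21.0% of all promoters. Of the other motifs searched on both strands, GGGCGG was in 6 of the 7 (35.9% of all), CCAAT in 3 (37.9%), CCGGAAG in 3 (9.12%), CACGTG in 1 (7.24%) and the NRF1 motif in none (4.78%). The 2 promoters are shown with the element in capitals, at chr11:51262864-51263163 (plus strand, Clk4) and chr3:65958200-65958499 (minus strand, Ccnl1).
Clk4: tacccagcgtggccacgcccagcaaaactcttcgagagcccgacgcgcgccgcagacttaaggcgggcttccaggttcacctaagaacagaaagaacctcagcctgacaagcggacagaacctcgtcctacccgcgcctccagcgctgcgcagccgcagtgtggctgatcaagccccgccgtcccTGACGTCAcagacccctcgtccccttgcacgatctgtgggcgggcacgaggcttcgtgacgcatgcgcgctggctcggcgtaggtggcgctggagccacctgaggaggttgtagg
Ccnl1: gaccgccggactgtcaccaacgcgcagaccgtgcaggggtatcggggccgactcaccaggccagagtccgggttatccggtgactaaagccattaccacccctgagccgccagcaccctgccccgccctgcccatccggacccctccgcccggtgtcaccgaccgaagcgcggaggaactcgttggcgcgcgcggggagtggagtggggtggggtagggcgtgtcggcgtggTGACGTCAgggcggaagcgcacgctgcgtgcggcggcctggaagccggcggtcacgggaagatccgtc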

How the data were processed

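RNA of isolated islets from 3 KO and 3 WT samples was sequenced. The authors deposited raw read counts per gene, whole numbers not normalized, and all 6 columns were matched to samples by name, leaving 0. Per the submitters' processing notes, CASAVA 1.8.2, HISAT2 2.1.0, HTSeq, DESeq2 and build mm9 were used. The annotation, the strand setting and the counting options were not given in the sources used here. Names of 24 rows had become dates and are not used here.

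Genes were kept by filterByExpr, scaled by TMM and tested with the quasi-likelihood F-test of edgeR 4.0.16 (R 4.3.3), Benjamini-Hochberg adjusted over 15915 genes and called below 0.05. The SE given with a log2 fold change is approximate, namely its absolute value divided by the square root of the F statistic. Exon models came from GENCODE vM1 (mm9), matched for 93.9% of tested genes. A floor of 3 counts was worth 0.110 to 0.117 CPM and covers counting error only. Libraries of a group differed by more than counting noise (chi-square per degree of freedom 25.0 to 81.8). A self-test of the KO against WT comparison on simulated data (15915 genes) found 13.4% of the genes altered 1.5-fold, 59.7% at 2-fold and 81.8% at 4-fold, with 5.5% false calls.

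The members, lists and alternatives were chosen with earlier results of these data known. The text names all 9 members, in each list up to 4 called genes or else the first 2 tested as written, and the 8 nearest profiles. Other genes were named after their values were seen. Alternatives used DESeq2 1.42.0, limma 3.58.1 and mgcv 1.9.3, and figures used matplotlib 3.10.9.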

Additional observations from a re-analysis of the deposited data

How the results depend on the processing

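The 9 genes kept their negative direction under all 17 alternatives, which is no result, since they were chosen with their difference known. The count of calls did not hold. edgeR called 27 genes lower and 0 higher over all tested genes (with unadjusted p below 0.05, 1493 and 1113), 3 of the 9 genes lower, and 1 gene lower and 0 higher in the lists of related genes. With library totals in place of TMM factors the counts lower were 120, 5 and 4, and the median of the 9 genes was -0.72, while the median of all genes moved to -0.075. DESeq2 called 394 lower and 162 higher, 7 of the 9 genes and 17 list genes. The counts lower were 0 in limma-voom, with the sex covariate, with the offsets for length and GC, with the acinar covariate and with KO replicate 1 alone against WT, which called 1 higher. With the replicate number as a block they were 0 as well. Whether the numbers pair the samples is not settled by these data. Same-numbered samples had correlations of deviations of 0.19, 0.073 and 0.025. KO replicates 1 and 2 correlated best with the WT sample of their own number, and KO replicate 3 did not. Leaving out 1 library gave 0 to 80 genes lower and 0 to 9 higher over all genes, 0 to 3 of the 9 genes, and 0 to 2 list genes lower. The highest counts came without WT replicate 3, and without KO replicate 1 it was 4 lower and 1 higher. Median log2 fold changes of the 9 genes with 1 library left out ran from -0.67 to -0.63. The causes were not tested. RPKM and family shares over the main coding transcript were chosen after seeing the data.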

Other observations

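Nonsense-mediated decay degrades transcripts with premature stop codons, such as those of CLK genes that skip exon 4, and genes of its machinery were singled out here after their values were seen. Smg1, the kinase that phosphorylates UPF1, had 91.9, 83.6 and 65.4 CPM in KO, against 145.9, 144.3 and 125.9 CPM in WT. Its log2 fold change was -0.79 (SE 0.13) and did not pass in edgeR (adjusted p = 0.0920). Upf1, the helicase of the pathway, had 30.3, 39.8 and 38.7 CPM in KO, against 54.8, 61.9 and 55.7 CPM in WT, at -0.66 (SE 0.12, adjusted p = 0.0988). The groups did not overlap in either gene.

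Cdk12 and Cdk13, kinases of transcription elongation that pair with cyclin K and not cyclin L, were at -0.53 (SE 0.08, adjusted p = 0.0840) and -0.44 (SE 0.09, adjusted p = 0.119). Taf1d, a gene of ribosomal RNA transcription that also hosts small nucleolar RNAs, had 3.35, 2.83 and 2.87 CPM in KO, against 6.29, 6.58 and 5.19 CPM in WT. At -0.997 on the log2 scale (SE 0.17) it was not called (edgeR adjusted p = 0.0935).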
